A study of Mus musculus with 9 samples.

Results

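The genes described here are 8 regulators that set the activity of mitochondrial and fat oxidation genes: Ppargc1a, Ppargc1b, Esrra, Esrrg, Ppara, Ppard, Nrf1 and Tfam. They were taken as every probe set that the platform annotation mapped to 1 of these symbols alone, which gave 22 probe sets for 8 genes, among 45101 probe sets and 18193 named genes in all. Of the 22 probe sets, 16 passed a filter for dim signal (a log2 value above 5 in at least 3 arrays), and each of the 8 genes kept at least 1. One further probe set named Ppard together with another gene and was dim, at 2.90 to 3.16, so it was not used. The genes were selected on their log2 values in these same arrays, since the list was drawn up with the late, early and control differences known. Their values are therefore given as a description, and nothing is read from how many of them passed a test.

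The arrays held quadriceps femoris, a thigh muscle, from 9 female C57Bl/6 HT transgenic mice, 3 per group, whose transgene, a self MHC class I, comes on when doxycycline is withdrawn. Late mice lost doxycycline at 35 days of age and were killed at 50 days. Early mice lost it at 21 days and were killed at 35 days, after 2 weeks of transgene expression. Control mice stayed on doxycycline and were killed at 35 days. Whether they differ in genotype is not settled by the labels, which give 1 strain name to all groups but speak in the protocol of single transgenic controls. The labels do not name the promoter that drives the transgene in muscle, and do not say whether each array held 1 animal. Late mice were older than early and control mice, so age and induction cannot be told apart where late mice enter. Values are GCRMA expression on the log2 scale, given per array or as mean ± SD (n = 3), and differences are log2 differences ± SE from 1 limma fit over all 9697 genes that passed the filter.

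As background, PGC-1alpha (Ppargc1a) and PGC-1beta (Ppargc1b) are coactivators: they bind no DNA themselves but dock on transcription factors and recruit the transcription machinery. Their partners include the estrogen-related receptors (Esrra, Esrrg), which bind genes of respiration and the citrate cycle, the fatty acid sensing receptors PPARalpha and PPARdelta (Ppara, Ppard), which bind genes of fat use, and NRF1, which binds genes of the respiratory chain and of mitochondrial upkeep. Tfam is a nuclear gene whose protein enters mitochondria, where it packs mitochondrial DNA and starts its transcription. In muscle, Ppargc1a is known for its response to endurance exercise and for its higher level in slow, oxidative fibres.

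The promoters of 4 of these genes are shown because the genes lie at both ends of the variation described below. On the brightest probe set of each gene, Ppara, Esrrg and Ppargc1a had the widest range over the 9 arrays among the 8, and Tfam the narrowest. Each is 300 bases from RefSeq on build GRCm38.p6, 250 before and 50 after an annotated start, written 5′ to 3′. Ppara lies at chr15:85735526-85735825, plus strand; Esrrg, for the first of its listed starts, at chr1:187608756-187609055, plus strand; Ppargc1a at chr5:51567676-51567975, minus strand; and Tfam at chr10:71237995-71238294, minus strand. The Ppargc1a window lies well inside the span of the gene, 51454249 to 52115853, so its start is an internal one. No other start of Ppargc1a was listed or searched. Capitals mark matches, on either strand, to the motifs spelled out after the sequences, except the E-box CANNTG, which was searched too but is left in lower case because 72.3% of promoters in the table hold it.
Ppara: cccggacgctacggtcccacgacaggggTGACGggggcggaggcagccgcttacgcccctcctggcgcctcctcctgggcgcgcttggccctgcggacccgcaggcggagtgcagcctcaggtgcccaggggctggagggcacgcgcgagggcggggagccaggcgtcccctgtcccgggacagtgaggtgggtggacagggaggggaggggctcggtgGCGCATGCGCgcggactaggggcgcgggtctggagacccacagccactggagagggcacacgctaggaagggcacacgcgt
Esrrg: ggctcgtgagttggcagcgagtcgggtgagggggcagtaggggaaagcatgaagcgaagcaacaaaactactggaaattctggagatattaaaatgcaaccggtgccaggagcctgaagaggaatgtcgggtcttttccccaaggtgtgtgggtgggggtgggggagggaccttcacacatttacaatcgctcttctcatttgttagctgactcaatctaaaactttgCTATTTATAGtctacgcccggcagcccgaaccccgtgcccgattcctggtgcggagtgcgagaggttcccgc
Ppargc1a: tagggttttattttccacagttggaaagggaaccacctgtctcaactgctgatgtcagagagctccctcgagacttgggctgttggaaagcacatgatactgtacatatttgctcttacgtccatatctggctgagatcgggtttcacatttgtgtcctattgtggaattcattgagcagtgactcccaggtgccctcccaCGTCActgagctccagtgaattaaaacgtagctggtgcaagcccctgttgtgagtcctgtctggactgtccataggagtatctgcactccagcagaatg
Tfam: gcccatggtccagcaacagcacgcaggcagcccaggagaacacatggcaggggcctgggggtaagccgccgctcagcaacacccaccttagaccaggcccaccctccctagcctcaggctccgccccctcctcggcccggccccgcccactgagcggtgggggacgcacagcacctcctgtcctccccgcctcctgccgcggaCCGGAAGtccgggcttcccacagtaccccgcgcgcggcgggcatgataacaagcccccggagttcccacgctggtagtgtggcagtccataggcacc
In Ppara the capitals are TGACG, the short form of the cyclic AMP response element, and the NRF1 core GCGCATGC, which matched on both strands with overlap. In Esrrg they are a MEF2 site written CTANNNNTA, again overlapping on both strands. In Ppargc1a they are the short cyclic AMP response element on the reverse strand, and in Tfam the GABP site CCGGAAG. Among the 32851 promoters of this length in the same table, 2.71% held the NRF1 core, 21.0% the MEF2 site, 20.8% the short cyclic AMP response element and 8.86% the GABP site. The ERR site TCAAGGTCA, the full cyclic AMP response element TGACGTCA, which contains the short form, and the PPAR site AGGTCANAG were searched as well and matched no window of the 7 members with an entry. These searches cover the listed starts only, so they do not show that other promoters of these genes lack the sites. Of the other members, Esrra held the NRF1 core, Nrf1 and Ppard matched the MEF2 pattern and Ppard held the short cyclic AMP response element. The MEF2 pattern leaves its middle bases open, so its matches, such as CTACTGCTA in Ppard, are loose. A match is a description of letters, not of binding.

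Ppargc1a was the member with the clearest split between the induced groups. On its brightest probe set it stood at 9.78, 9.73 and 9.29 in late mice 1, 2 and 3, at 7.38, 8.24 and 8.56 in early mice 1, 2 and 3, and at 8.52, 8.72 and 8.81 in control mice 1, 2 and 3. Every late array lay above every other array, while early 3 lay inside the control range. The means were 9.60 ± 0.27 in late mice, 8.06 ± 0.61 in early mice and 8.68 ± 0.15 in control mice. Late minus early was 1.54 ± 0.29, a ratio of 2.91. Late minus control was 0.92 ± 0.29 and early minus control was -0.62 ± 0.29, and these last 2 share the same control arrays. Late minus early was 1.63, 1.45 and 1.47 without early 2, late 1 or late 2, and in each of those fits, unlike with all arrays, Ppargc1a was not called.

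The other 4 passing probe sets of Ppargc1a had the same order of group means. Their late minus early differences were smaller: 1.47 ± 0.34 on 1434099_at, 0.94 ± 0.23 on 1437751_at, 0.59 ± 0.24 on 1456395_at and 0.60 ± 0.43 on 1460336_at. The late and early arrays did not overlap on the first 2 of these, and they overlapped on the other two. On 1460336_at the arrays stood at 8.59, 7.95 and 7.03 in late mice and at 7.68, 6.58 and 7.52 in early mice, and the lowest control stood at 7.20, so late 3 lay below every control there. The brightest probe set is of the kind marked x, some of whose probes can match other transcripts. The size of the difference was thus not the same on every probe set, and the mean of all 5 probe sets gave 1.03 for late minus early.

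**Figure D1:**
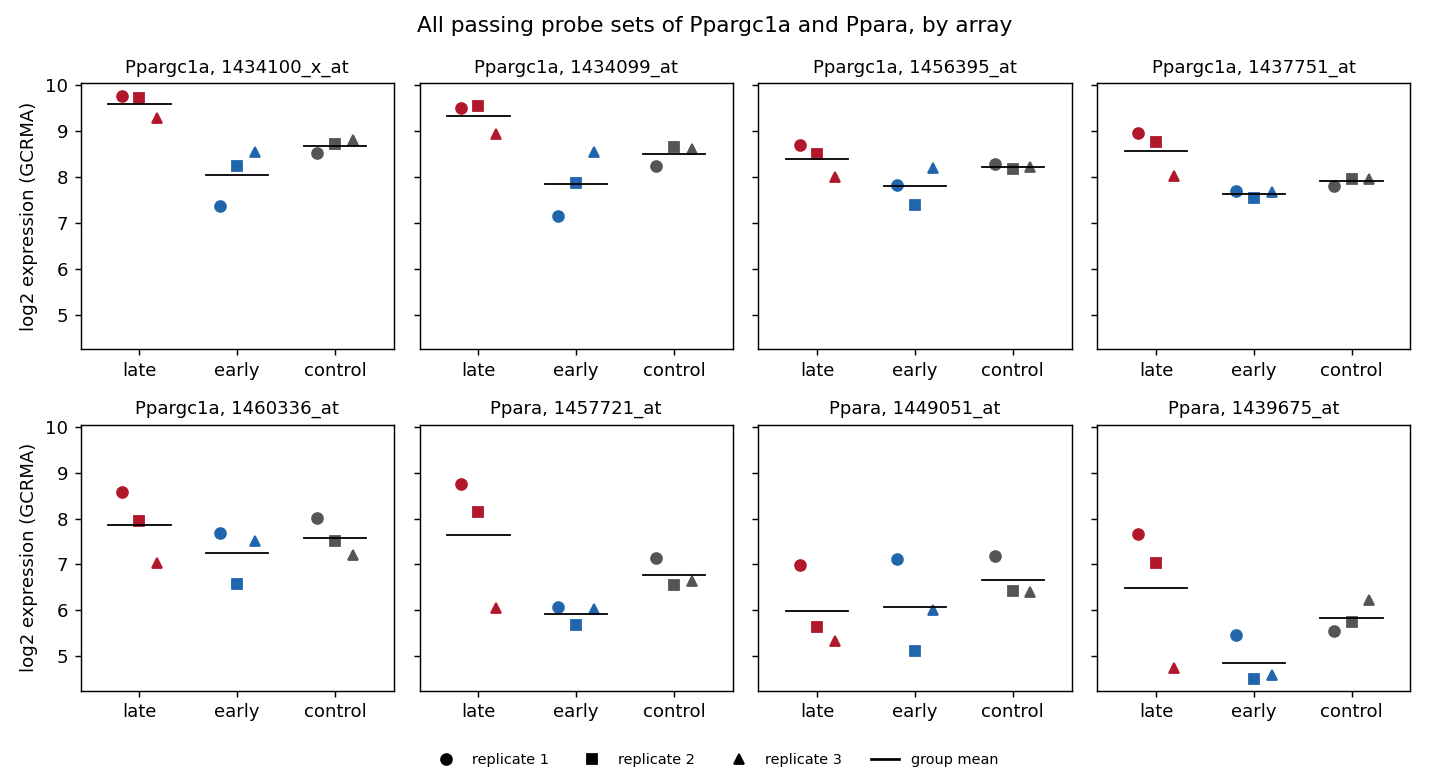
Log2 expression (vertical axis) in late, early and control muscle on the 5 passing probe sets of Ppargc1a and the 3 of Ppara, 1 point per array and a line at each group mean. Ppargc1a means are highest in late mice on all 5 probe sets, while the Ppara probe set 1449051_at has its late mean at 5.99, below the control mean of 6.67.

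Ppargc1b, the second coactivator, showed another order of groups. It stood at 8.28, 9.05 and 8.84 in late mice, at 8.51, 8.12 and 8.57 in early mice, and at 9.32, 9.14 and 9.29 in control mice. All 6 induced arrays lay below all 3 control arrays, and late and early arrays overlapped. Early minus control was -0.85 ± 0.21, late minus control was -0.53 ± 0.21 and late minus early was 0.32 ± 0.21. The gene is read by 1 probe set. Markers of fat cells followed a like order of group means, though late 2 lay above every control. Their mean log2 level over 6 genes was 8.22, 11.33 and 8.52 in late mice, 9.31, 7.72 and 8.04 in early mice, and 11.25, 9.87 and 10.49 in control mice. Among them Ucp1, the heat-producing carrier of brown fat, stood at 3.00, 11.68 and 6.49 in late mice, at 6.33, 2.73 and 3.42 in early mice, and at 10.38, 7.74 and 9.62 in control mice. The part of fat cells in the Ppargc1b values was not tested, and in whole tissue fewer cells of a type and less RNA per cell cannot be told apart. The highest Ppargc1a values were those of late 1 and late 2, where Ucp1 stood at 3.00 and 11.68. The part of fat cells in the Ppargc1a values was not tested either.

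Of the 2 estrogen-related receptors, Esrra varied little. It stood at 8.42, 8.87 and 8.87 in late mice, at 9.12, 8.63 and 8.96 in early mice, and at 9.33, 8.99 and 8.90 in control mice. Late arrays lay just below the controls, and early arrays overlapped both groups. Late minus control was -0.35 ± 0.20, early minus control -0.17 ± 0.20 and late minus early -0.19 ± 0.20. Its second probe set was dim, at 4.37 to 5.23, and did not pass the filter.

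Esrrg was the member with the widest spread inside a group. It stood at 7.86, 8.14 and 7.60 in late mice, at 8.66, 8.30 and 5.83 in early mice, and at 6.17, 6.93 and 7.62 in control mice. Early mice thus held both the highest and the lowest of the 9 arrays, and their SD was 1.54, against 0.27 in late mice and 0.73 in control mice. Late minus control was 0.97 ± 0.68, early minus control 0.69 ± 0.68 and late minus early 0.27 ± 0.68. Without early 3, late minus early was -0.61 and early minus control was 1.58, which was then called. Without early 1, early minus control was 0.16.

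Slow fibre genes varied in the same arrays. Their mean log2 level over 12 genes was 12.26, 11.84 and 8.74 in late mice, 11.93, 9.63 and 7.15 in early mice, and 9.33, 8.40 and 10.44 in control mice. Early 1 was high and early 3 low on both Esrrg and the slow list, and control 3 was the highest control on both. Late 3, low on the slow list, had an Esrrg value of 7.60, close to control 3. Early 2, with Esrrg at 8.30, had the slow myosin heavy chain gene Myh7 at 2.78, while early 1 had it at 10.96 and early 3 at 2.79. Fast fibre genes, most of them near the top of the range of these arrays, had a mean level of 15.34 to 15.42 in late mice, 15.17 to 15.26 in early mice and 15.32 to 15.43 in control mice. Myh2, a fast myosin heavy chain gene of the more oxidative fast fibres, stood at 15.04, 15.21 and 14.62 in late mice, at 14.76, 14.50 and 13.20 in early mice, and at 14.11, 14.16 and 14.57 in control mice, so early 3 was the lowest array there too. The part of fibre type, or of the piece of muscle taken, in the Esrrg values was not tested.

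**Figure D2:**
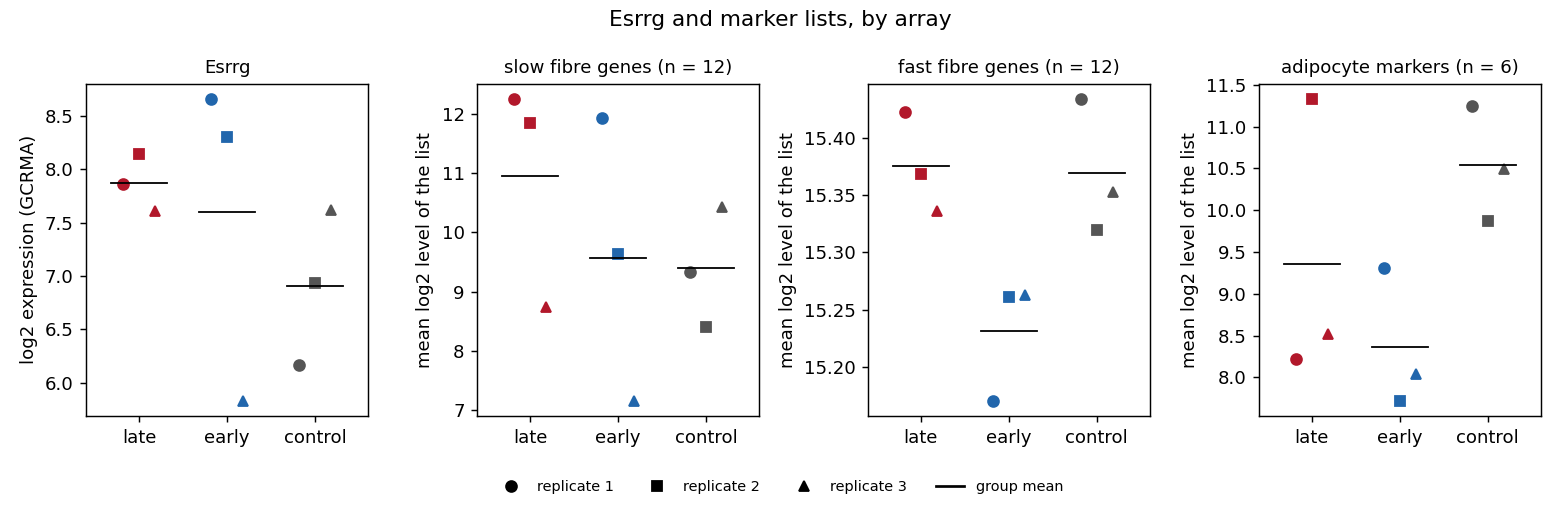
Log2 expression of Esrrg and the mean log2 level of 12 slow fibre, 12 fast fibre and 6 adipocyte genes (vertical axes, each with its own range) in late, early and control muscle, 1 point per array and a line at each group mean. Esrrg and the slow list both have early 1 high and early 3 low (8.66 and 5.83; 11.93 and 7.15).

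Ppara, the receptor that drives fat oxidation genes in fasting, was high in 2 of the 3 late mice. Its brightest probe set stood at 8.75, 8.14 and 6.05 in late mice, at 6.08, 5.68 and 6.03 in early mice, and at 7.15, 6.55 and 6.63 in control mice. Late 3 lay within the early range, and all early arrays lay below all control arrays. In the sample titles, late 1 and late 2 carry numbers in a run apart from late 3 and the early and control arrays. What the numbers stand for is not given, and their part in the Ppara values was not tested. Late minus early was 1.71 ± 0.58, late minus control 0.87 ± 0.58 and early minus control -0.84 ± 0.58. Late minus control was 0.32 without late 1 and 1.67 without late 3, and late minus early was 2.51 without late 3, the only array whose omission made it a call.

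The probe sets of Ppara did not show 1 pattern. On 1439675_at, late 1 and 2 were again high, at 7.66 and 7.03, and late 3 was low, at 4.75. Early 2 and 3 stood at 4.52 and 4.58 there, so these arrays and late 3 were below 5 and dim. On 1449051_at the arrays stood at 6.99, 5.65 and 5.34 in late mice, at 7.13, 5.12 and 6.00 in early mice, and at 7.18, 6.42 and 6.39 in control mice, so replicate 1 was the highest of every group and the groups overlapped. The late minus early difference was 1.62 ± 0.66 on the first of these and -0.09 ± 0.56 on the second. Late minus control was 0.64 ± 0.66 and -0.67 ± 0.56, so the sign depended on the probe set. The direction of Ppara in late mice is therefore not settled by these arrays. The late arrays with high Ppara on 2 probe sets, late 1 and 2, were also those with high slow fibre genes, but early 1, with slow genes at 11.93, had Ppara at 6.08; the part of fibre type was not tested.

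Ppard, the PPAR most common in muscle, stood at 6.91, 6.80 and 6.79 in late mice, at 6.67, 6.25 and 6.60 in early mice, and at 6.92, 7.03 and 6.72 in control mice. All early arrays lay below all others, and late and control arrays overlapped. Early minus control was -0.38 ± 0.15, late minus early 0.33 ± 0.15 and late minus control -0.06 ± 0.15. Its other probe set was dim throughout, at 2.20 to 2.33.

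Nrf1 stood at 7.01, 5.93 and 5.89 in late mice, at 5.84, 5.56 and 5.89 in early mice, and at 5.99, 5.52 and 5.89 in control mice. One array, late 1, was above the rest, and the other 8 lay between 5.52 and 5.99. The second passing probe set of Nrf1 showed the same array apart, at 6.80 in late 1 against 5.25 to 5.67 in all others. Late minus control was 0.48 ± 0.29, and 0.11 without late 1. The difference from early mice was 0.51 ± 0.29, and 0.14 without late 1, and early minus control was -0.03 ± 0.29.

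On the brightest probe set of each gene, Tfam was the steadiest member, with a range of 0.64 over the 9 arrays. It stood at 10.58, 10.69 and 10.75 in late mice, at 10.11, 10.57 and 10.62 in early mice, and at 10.27, 10.42 and 10.68 in control mice, and all groups overlapped. Its late minus early difference was 0.24 ± 0.18, late minus control 0.22 ± 0.18 and early minus control -0.02 ± 0.18. Its second probe set gave a wider split: 7.11, 7.26 and 7.12 in late mice, 6.45, 6.34 and 6.89 in early mice, and 6.82 in each control mouse. There late arrays lay above all others, with late minus early at 0.61 ± 0.16 and late minus control at 0.35 ± 0.16. In a fit of single probe sets, late minus early was called there (limma, adjusted p = 0.0481), as it was for 1803 of 16048 probe sets.

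**Figure D3:**
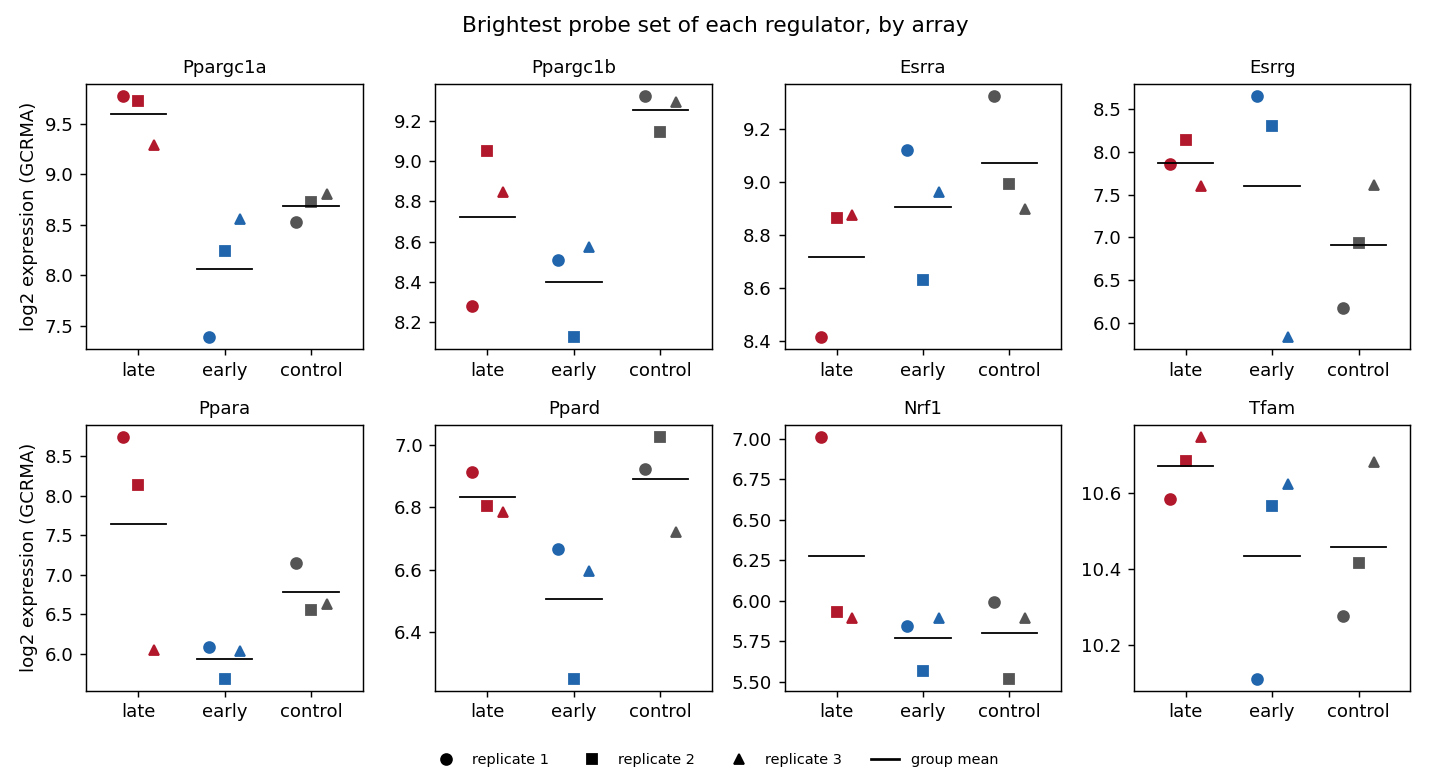
Log2 expression (vertical axis, with its own range in each panel) of the brightest probe set of each of the 8 regulators in late, early and control muscle, 1 point per array and a line at each group mean. Late arrays sit above all others for Ppargc1a (9.29 to 9.78), induced arrays below controls for Ppargc1b, and late 1 stands alone for Nrf1 (7.01).

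Over the 8 genes, the median late minus early difference was 0.33, with 7 genes positive, against a median of 0.03 over all genes tested. For late minus control the median was 0.35, with 5 positive, against 0.01 over all genes. For early minus control it was -0.28, with 7 negative, against -0.03 over all genes. With limma and Benjamini-Hochberg adjustment over 9697 genes, 1 member was called for late minus early, Ppargc1a, where 11.5% of all genes were called and 6.23% were called higher. No member was called for late minus control, where 0.206% of genes were, or for early minus control, where 1.19% were. At an unadjusted p under 0.05, 2 of 8 members passed in each comparison, against 34.2% of all genes for late minus early, 17.3% for late minus control and 18.5% for early minus control. With array weights 4 members were called for late minus early, 1 for late minus control and 3 for early minus control. Under those weights 3534, 1037 and 3335 of all 9697 genes were called. Groups did not overlap for 2 members in late against early, both higher, where 32.1% of all genes did not overlap, 18.3% higher and 13.7% lower. They did not overlap for 3 members in late against control, 1 higher and 2 lower, where 31% of all genes did not, 16% higher and 14.9% lower. In early against control they did not overlap for 3 members, all lower, where 23.6% of all genes did not, 9.63% higher and 13.9% lower. The members were chosen with these contrasts known, so none of these counts is read as a result about them.

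**Figure D4:**
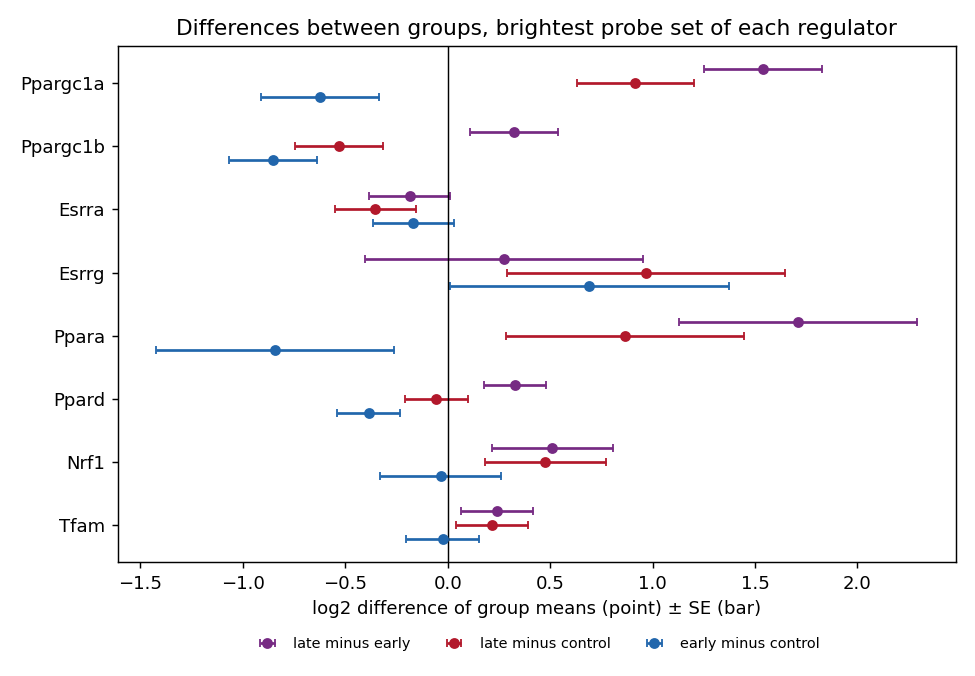
Log2 differences of group means (horizontal axis, points) with their SE (bars) for the 8 regulators in late minus early, late minus control and early minus control. Ppargc1a (1.54, 0.92 and -0.62) and Ppara (1.71, 0.87 and -0.84) have late above and early below control, with wider bars for Ppara.

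The genes whose pattern lay closest to that of Ppargc1a were ranked by the root mean square difference, over the 9 arrays, between log2 values centred on each gene's own mean. The 10 closest of 9696 genes were Ahctf1, Rps6ka5, Sorbs2, Plxna2, Swt1, Usp38, Rab11fip3, Ttll7, Mapk9 and Nsmaf, at 0.20 to 0.23. The median over all genes was 0.75, and Ppargc1a varied about its own mean by 0.71. Ahctf1, a protein of nuclear pore assembly, stood at 8.59, 8.46 and 8.34 in late mice, at 6.57, 7.29 and 7.97 in early mice, and at 7.76, 7.74 and 7.71 in control mice. Sorbs2, an adaptor of the cytoskeleton, stood at 9.15, 9.04 and 9.10 in late mice, at 6.56, 7.88 and 8.28 in early mice, and at 7.98, 8.28 and 8.05 in control mice. Both genes, like Ppargc1a, had early 1 as the lowest of the 9 arrays. None of the other 7 members was among the closest: Tfam ranked 1897, Nrf1 2204, Ppard 3024, Ppara 3632, Ppargc1b 5180, Esrra 6672 and Esrrg 8926.

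Around these regulators, 140 further genes in 8 lists were measured: the signals upstream of Ppargc1a, other coregulators, other DNA-binding partners, mitochondrial DNA upkeep, mitochondrial import and shape, PPAR targets, respiratory and citrate cycle genes, and other outputs of Ppargc1a. In late against early muscle 15 of the 140 rose and 4 fell. Rose and fell mean higher and lower in late than in early mice, and do not say which group differed from controls. That is 13.6% of them, near the 11.5% of all genes called, with 10.7% higher against 6.23% of all genes and 2.86% lower against 5.31%. Centring each array on its median turned the split over all genes, with 489 higher and 631 lower in place of 604 and 515, and gave 13 higher and 4 lower among the 140. The median difference of the 140 was 0.24, with 101 positive. Over all genes the median was 0.03, with 47.0% negative. The count of pathway genes called rested on single arrays. It was 2, 0 and 45 without early 1, 2 or 3, 5 and 2 without late 1 or 2, and 7 without any 1 of the control arrays. It was 20 without late 3. Without early 3, 2959 of all 9697 genes were called.

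Among 14 other coactivators and corepressors, 5 rose in late against early muscle and 9 did not pass (median 0.56). For this list and those that follow, the shares of all genes called were 6.23% higher and 5.31% lower. Ep300, an acetyltransferase that PGC-1alpha recruits, rose by 1.16 ± 0.27 (limma, adjusted p = 0.0341): it stood at 9.91, 9.45 and 9.95 in late mice, and at 8.17, 8.45 and 9.21 in early mice. Ncoa1, a steroid receptor coactivator, rose by 0.89 ± 0.21, and Ncoa6, another coactivator, by 0.67 ± 0.18. Tbl1xr1 and Tbl1x, subunits of the nuclear receptor corepressor complex, rose by 0.96 ± 0.25 and 0.57 ± 0.16. Members with opposite roles, activating and repressing, thus moved together. Late and early arrays did not overlap for any of the 5. Against controls, Ncoa1 had 0.06 in late and -0.83 in early mice, while Tbl1xr1 had 0.84 and -0.12. The number that rose was 6 without early 3, 2 without late 3, 1 without early 1 and 0 without any 1 of the other arrays.

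Among 14 other DNA-binding partners, 2 rose and 12 did not pass (median 0.52). They were Nr1d2, a repressor of the circadian clock (0.97 ± 0.24), and Rora, which binds the same sites as an activator (0.73 ± 0.18). Rxra, the shared partner of the PPARs, had 0.52 ± 0.16 and did not pass. Esrrb and Thrb were below the floor. Among 31 genes upstream of Ppargc1a, 1 rose, 1 fell and 29 did not pass (median 0.26). Both belong to AMP-activated kinase, the energy sensor that acts on PGC-1alpha. Its catalytic subunit Prkaa2 rose by 0.76 ± 0.14 (limma, adjusted p = 0.0198), with arrays at 11.75, 11.53 and 11.64 in late mice against 10.71, 10.83 and 11.11 in early mice. Its regulatory subunit Prkag2 fell by 1.14 on the log2 scale (SE 0.19), with 6.75, 7.14 and 6.91 in late mice against 8.44, 8.01 and 7.78 in early mice.

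Among 16 genes of import, fusion and fission, 3 rose, 1 fell and 12 did not pass (median 0.13). The 3 that rose are the fusion genes of the list: Mfn2 (0.98 ± 0.17, limma adjusted p = 0.0161) and Mfn1 (0.61 ± 0.15), which join outer membranes, and Opa1 (0.60 ± 0.16), which joins inner membranes. Mfn2 stood at 13.20, 12.72 and 12.75 in late mice, at 11.73, 11.95 and 12.06 in early mice, and at 12.27, 12.20 and 12.40 in control mice, so controls lay between the induced groups. Tomm40, the channel of the outer membrane import complex, fell by 0.97 (SE 0.19). Among 17 genes of mitochondrial DNA copying and transcription, 2 rose, 1 fell and 14 did not pass (median 0.07). Lrpprc, which stabilises mitochondrial transcripts, rose by 1.04 ± 0.19, Mgme1, a nuclease of mitochondrial DNA upkeep, rose by 0.90 ± 0.21, and Rnaseh1, which removes RNA primers, fell by 0.68 (SE 0.17).

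For the targets of the regulators, counts are set beside the 11.5% of all genes called in late against early muscle. Of 19 PPAR targets of fat handling, 1 rose and 18 did not pass (median 0.26): Lpl, which frees fatty acids from blood lipids, rose by 0.64 ± 0.16. Against controls, Lpl had 0.16 in late and -0.48 in early mice. Plin5, a lipid droplet protein, had the widest difference without passing (1.55 ± 0.47). Of 19 respiratory and citrate cycle genes with known ERR or NRF1 control, 0 passed with limma, 3 had an unadjusted p under 0.05 and the median was 0.15. Of all genes 34.2% had an unadjusted p under 0.05. Ndufs1, a subunit of complex I, had 0.60 ± 0.17 and Cs, citrate synthase, 0.40 ± 0.14. Of 10 other outputs of muscle Ppargc1a, 1 rose, 1 fell and 8 did not pass (median 0.54). Fndc5, which encodes the precursor of the secreted peptide irisin, rose by 1.56 ± 0.27 (limma, adjusted p = 0.0161), close in size to Ppargc1a; it stood at 9.03, 9.51 and 9.28 in late mice, at 7.41, 7.88 and 7.86 in early mice, and at 8.54, 8.37 and 9.33 in control mice. Pdgfb, a growth factor, fell by 1.30 (SE 0.24).

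**Figure D5:**
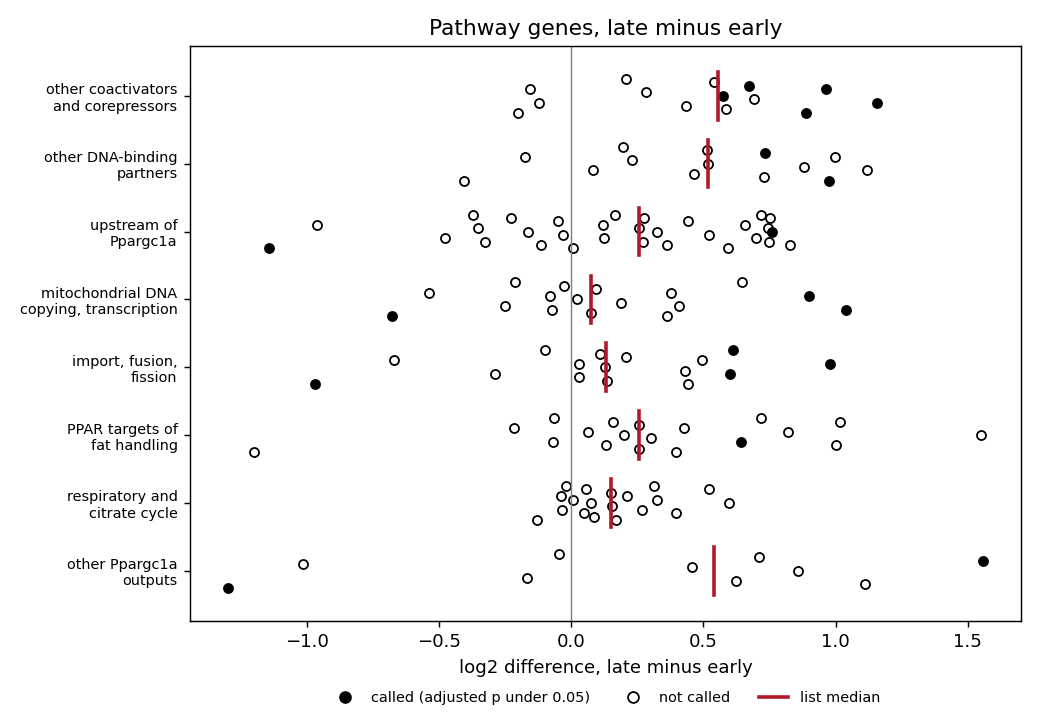
Log2 differences, late minus early (horizontal axis), of 140 pathway genes in 8 lists (rows). Filled points are the 19 genes called at an adjusted p under 0.05, open points are not called, and the bar is the list median, from 0.07 for mitochondrial DNA genes to 0.56 for other coactivators and corepressors; vertical scatter within a row only separates points.

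Against controls 0 of the 140 genes were called by limma for late mice, with 17 higher and 9 lower at an unadjusted p under 0.05, and 0 for early mice, with 4 higher and 24 lower. Of all genes 0.206% were called for late mice and 1.19% for early mice. At an unadjusted p under 0.05 the shares of all genes were 17.3% and 18.5%. With array weights 13 were called in late mice and 51 in early mice, where 1037 and 3335 of all 9697 genes were called. The count for early mice was 26 without early 3, of which 20 were lower, where 1756 of all genes were called. The early count among the 140 genes was 0 on leaving out any other array. The count for late mice was 1 without late 3. The medians over the 140 genes were 0.06 for late minus control and -0.16 for early minus control. In early mice the values farthest from control among genes with the smallest p were those of Prkag3, a muscle subunit of AMP-activated kinase (-1.80 ± 0.40), Map2k6, which activates p38 kinases (-1.54 ± 0.48), and Plin5 (-1.39 ± 0.47). Fndc5 had -1.03 ± 0.27, and Slc2a4, the insulin-responsive glucose transporter, -0.60 ± 0.19. Of the respiratory and citrate cycle genes 18 of 19 had negative values in early mice, with a median of -0.16. Over all genes 54.1% had negative values there, with a median of -0.03. In late mice Acot2, a mitochondrial thioesterase of fat oxidation and a PPAR target, had 1.04 ± 0.24, and Pdk4, a kinase that blocks glucose oxidation, had 1.02 ± 0.36. Lpin1, a coactivator that also makes diacylglycerol, had 0.86 ± 0.20, and Angptl4, a PPAR target that inhibits Lpl, had -2.18 ± 0.86. None of these passed.

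Facts of the whole set of arrays touch all of these values. H2-K1, the class I gene read as a check of the transgene, averaged 13.87 ± 0.66 in late mice, 14.66 ± 0.03 in early mice and 10.52 ± 0.34 in control mice. All 7 genes of skeletal muscle identity were measured, at a mean level of 14.18 to 14.25 in late mice, 14.17 to 14.32 in early mice and 14.21 to 14.35 in control mice. Mean levels of macrophage markers (8 of 9 above the floor) were 8.24 to 8.83 in late mice, 8.32 to 10.02 in early mice and 8.41 to 8.86 in control mice. In early mice 1, 2 and 3, Cd68 stood at 12.06, 11.17 and 6.23 and Mpeg1 at 8.13, 8.11 and 5.72, so early 3 was lowest of them on both. On Cd163 early 3 lay between the other early arrays, at 7.95 against 8.27 and 7.89. Mean levels of 9 endothelial markers were 8.06 to 8.35 in late mice, 7.66 to 7.95 in early mice and 7.89 to 8.22 in control mice. Those of 3 nerve markers were 9.07 to 9.23 in late mice, 8.45 to 8.58 in early mice and 9.21 to 9.75 in control mice. Those of 7 satellite cell and immature fibre genes were 6.12 to 6.71 in late mice, 6.39 to 7.03 in early mice and 6.88 to 7.07 in control mice. In late against early muscle 0 slow, 0 fast, 0 muscle identity and 0 adipocyte genes were called by limma (1, 0, 2 and 1 at an unadjusted p under 0.05), while Vwf and Mbp rose and C1qa, Myog and Mymk fell. Of all genes 11.5% were called there, and 34.2% had an unadjusted p under 0.05. Leaving out 1 array ended the Mbp call in 9 of 9 fits, and left no endothelial marker higher and no macrophage marker lower in 8 of 9, all but that without early 3. The number of satellite cell and immature fibre genes that fell was 1 without late 2 and 2 in the other 8 fits. Mymk lay below 5 in all late arrays and in 2 of 3 early arrays, so the late minus early difference is one of dim values. Myog and Mymk fell in late against control muscle too, and Mymk in early against control muscle. The part of these cell types in the values of the regulators was not tested.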

How the data were processed

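RNA of 9 quadriceps samples was hybridised to Affymetrix arrays, 1 per sample. The deposited log2 values were made by the authors with GCRMA, per the submitters' processing notes; its version is not given in the sources used here. GCRMA makes dim probe sets alike and equalises the arrays' distributions, so these values cannot show a shift of all genes at once. Array medians lay between 3.41 and 3.45, and 17391 to 17735 probe sets lay above 5. Precision is limited by the 3 arrays per group.

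Of 45101 probe sets 34958 named 1 gene, 932 several and 9211 none in the platform annotation, and only the first kind was used, without control probe sets. Of the rest, 16048 had a log2 value above 5 in at least 3 arrays, and the probe set with the highest mean stood for each of 9697 genes. One model of 3 group means was fitted with limma 3.58.1 in R 4.3.3, with Benjamini-Hochberg adjustment over all genes and calls at an adjusted p under 0.05; it was tested on simulated data. Promoters are RefSeq's, for 7 of 8 members.

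The members and lists were chosen with earlier results of these data known. Named were all members, list genes called or else with the smallest p (a choice from up to 4 per list), the 10 genes closest to Ppargc1a and H2-K1. Replicates are numbered in the labels, which do not say what numbers share or whether samples are separate animals. If they are not, p-values cover technical spread only. Deviations of same-numbered late and early arrays correlated at 0.17, 0.20 and 0.16 across genes. Those of late and control arrays correlated at 0.08, -0.16 and -0.11, and those of early and control arrays at 0.35, 0.11 and -0.04. The model of group means paired no arrays. Differences, SEs and calls are therefore unpaired except where the replicate block, an alternative fit, is named. Alternatives were other filters, probe set rules, scalings, weights, a variance trend, 2 groups alone, a replicate block and leaving out each array; the values of every passing probe set of the members were added after seeing the data.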

Additional observations from a re-analysis of the deposited data

Results flagged for a closer look

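The contrast of late with early mice is also the test of whether the differences of late and early mice from the shared controls differ from each other. Ppargc1a had every late array above and every early array below the control mean, with late minus early at 1.54; it was chosen with this contrast known, so that value is a description. Of the pathway genes, limma called higher values in late than in early mice for Fndc5 (1.56), Ep300 (1.16), Lrpprc (1.04), Mfn2 (0.98), Nr1d2 (0.97), Tbl1xr1 (0.96), Mgme1 (0.90), Ncoa1 (0.89), Prkaa2 (0.76), Rora (0.73), Ncoa6 (0.67), Lpl (0.64), Mfn1 (0.61), Opa1 (0.60) and Tbl1x (0.57). It called lower values for Pdgfb (-1.30), Prkag2 (-1.14), Tomm40 (-0.97) and Rnaseh1 (-0.68). Of the markers of cell types, Vwf (1.04) and Mbp (0.80) were called higher and Myog (-2.41), C1qa (-1.70) and Mymk (-1.18) lower. The Mbp call was lost on leaving out any 1 of the 9 arrays, and the calls of Vwf and C1qa on leaving out any but early 3. Mymk was below 5 in all late and in 2 of 3 early arrays, so its difference is one of dim values.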

How the results depend on the processing

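Of 429 differences of the 8 members recomputed under other settings, 201 equalled the value given, many because the setting cannot move a difference of means. Of the other 228, 4 moved by over 1 residual SD, and 10 had the other sign, such as late minus early of Esrrg without early 3 (-0.61), whose residual SD is wide. Ppargc1a kept its sign throughout: leaving out 1 array gave 1.20 to 1.79 for late minus early, 0.82 to 1.07 for late minus control and -0.87 to -0.28 for early minus control. The mean of its probe sets gave 1.03 for late minus early; single probe sets gave 0.94, 0.59 and 0.60 there, and 0.17 and 0.28 for late minus control. Ppargc1a was not called for late minus early when only those 2 groups were fitted (limma, adjusted p = 0.0857).

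The count of all genes called moved most. For late minus early it was 1119, 584 with no filter, 38 with only the 2 groups, 3534 with array weights and 143 to 2959 on leaving out 1 array; it was 1114 with the replicate block, where the numbers pair the arrays, and Ppargc1a stayed called. For late minus control it was 20 (9 higher and 11 lower, or 8 and 18 with arrays centred on their medians), 12 with only the 2 groups, 1037 with array weights, 5 with the replicate block and 5 to 59 on leaving out 1 array. For early minus control it was 115, 56 with no filter, 61 with only the 2 groups, 3335 with array weights, 62 with the replicate block and 6 to 1756 on leaving out 1 array. With the replicate block the pathway genes called in late against early were 16 in place of 19. That count was 8 with no filter and 1 with only the 2 groups. The causes were not tested. Scaling moved the median of all genes by less than 0.1. Dim probe sets limit Esrra, Esrrg, Nrf1 and Ppard, each of which had at least 1 probe set under the floor. The Ppara probe set 1439675_at passed the filter but lay below 5 in late 3, early 2 and early 3.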
